A study of Mus musculus with 6 samples.

Results

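Matrix proteases and their inhibitors were examined in brain mural cells as a group of 42 genes chosen by family and symbol, out of 33460 genes listed in the deposited files. The group holds 11 matrix metalloproteases (*Mmp* genes), 4 tissue inhibitors of metalloproteases (*Timp* genes), 9 *Adam* genes, 11 *Adamts* genes, 3 *Adamts*-like genes and 4 other proteases or protease inhibitors (*Ctsk*, *Plat*, *Htra3* and *Serpine2*). RNA-seq was available for 3 samples of mural cells, sorted by FACS as positive for both reporters of *Pdgfrb-eGFP/NG2-DsRed* transgenic mice, and for 3 samples of microvascular fragments, which hold endothelial and mural cells together. All mice carried both transgenes and were at postnatal day 6 (P6). Per the study's methods, the brains of 3 mice were cut into sides, of which one was dissociated and sorted and the other was disintegrated, digested with collagenase and captured with beads carrying antibodies to CD31, an endothelial surface protein. Neither reporter gene alone is specific to mural cells. *Pdgfrb* is also known from fibroblasts around larger vessels and in the meninges, and NG2 (the product of *Cspg4*) from oligodendrocyte progenitors. In the paper's imaging, the expression of the reporters outside mural cells did not overlap. It concludes that cells positive for both are mural cells and likely no other brain cell type. As a limit, part of the vascular smooth muscle cells carry little NG2-DsRed.

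Matrix metalloproteases, ADAM and ADAMTS proteins are zinc-dependent enzymes of the metzincin clan that cut proteins outside the cell or at its surface. Matrix metalloproteases are made as inactive precursors and cleave collagens, laminins and other matrix proteins, and TIMPs block their active site. ADAMs release the outer parts of membrane proteins such as growth factor precursors and Notch receptors, and ADAMTS enzymes process procollagens and cleave proteoglycans such as versican and aggrecan. In brain vessels mural cells are embedded in a basement membrane of type IV collagen, laminins, nidogen and perlecan, which is remodelled as vessels grow, and MMP9 is best known there for breaking down this membrane when the blood-brain barrier is damaged.

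The feature that joins the proteolytic families is a short coding stretch for the residues that hold the catalytic zinc. It encodes histidine, glutamate, any pair of residues, histidine, any pair, glycine or asparagine, any pair and histidine, and thus spans 33 bases. It was found in the annotated coding sequence of 11 of 11 *Mmp* genes, 7 of 9 *Adam* genes and 11 of 11 *Adamts* genes, and in 0 of 3 *Adamts*-like, 0 of 4 *Timp* and 0 of 4 other members. The *Adam* genes without it were *Adam22* and *Adam23*, known as adhesion and receptor proteins without protease activity. In all 11 *Mmp* genes the stretch lay within 1 exon, and in all 11 *Adamts* genes it was split by an exon junction. The residue between the second and the last histidine was encoded as glycine in 6 *Adamts* genes and as asparagine in 5 (*Adamts1*, *Adamts4*, *Adamts9*, *Adamts15* and *Adamts20*). To compare enriched and lower genes, the stretches of the 9 called members that hold one and have a RefSeq promoter entry follow in coding direction, with the codons of the 3 histidines and of the glycine or asparagine in capitals.
Mmp11: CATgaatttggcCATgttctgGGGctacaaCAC
Mmp14: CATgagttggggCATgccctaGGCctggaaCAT
Adam17: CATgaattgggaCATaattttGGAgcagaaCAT
Adam19: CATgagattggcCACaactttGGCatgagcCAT
Adamts1: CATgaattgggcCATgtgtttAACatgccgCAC
Adamts2: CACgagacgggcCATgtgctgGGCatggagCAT
Adamts12: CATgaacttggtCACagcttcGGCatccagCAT
Adamts14: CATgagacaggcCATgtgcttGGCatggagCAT
Adamts17: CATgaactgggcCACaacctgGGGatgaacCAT
On NCBIM37 these coding bases lie at chr10:75389676-75389708 on the minus strand for *Mmp11* (exon 5), at chr14:55056464-55056496 on the plus strand for *Mmp14* (exon 5), at chr12:21342593-21342625 on the minus strand for *Adam17* (exon 12) and at chr11:45938552-45938584 on the plus strand for *Adam19* (exon 11). The others are split by an intron, between exons 3 and 4 of *Adamts1* (chr16:85799436-85799790, minus strand), exons 7 and 8 of *Adamts2* (chr11:50588905-50589636, plus strand), *Adamts12* (chr15:11171284-11185319, plus strand) and *Adamts14* (chr10:60688213-60689871, minus strand), and exons 8 and 9 of *Adamts17* (chr7:74113784-74147359, plus strand).

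The libraries differed in the number of mapped fragments behind their values, after the authors had removed duplicates. The paper gives far more reads sequenced per sample. FPKM values are fragments per kilobase of transcript per 1 M mapped fragments, here with rRNA-depleted total RNA. Turned back into fragments, they gave about 4.24 to 4.65 M mapped fragments in the microvascular libraries. Mural cell samples 1, 2 and 3 held about 1.77, 0.744 and 0.791 M. A single fragment on a transcript of 2000 bases was thus worth 0.119 to 0.131 FPKM in the microvascular libraries and 0.314 to 0.746 FPKM in the mural cell libraries. All 11 known mural cell markers examined were enriched in the sorted cells, with ratios of mean FPKM of 6.47 to 12.5 and a median of 9.08. Markers of other cells moved as well. The summed FPKM of 12 endothelial markers was 2104 to 2469 in fragments and 1558 to 2032 in mural cells. That of 8 microglia markers was 1540 to 1845 and 143 to 175, and that of 4 perivascular macrophage markers 91.8 to 158 and 6.65 to 16.0. The sum of 10 fibroblast markers was 91.7 to 97.1 and 565 to 761, and for none of these sums did the groups overlap. *Col1a1*, *Col1a2* and *Col3a1*, with means of 111, 221 and 213 FPKM, made up most of the fibroblast sum in mural cells. The paper lists *Col1a2* and *Col3a1* among its mural cell-enriched genes. The fibroblast markers *Pdgfra*, *Fbln1* and *Slc6a13* were not called, and *Dpt* was not tested. The sum of 8 astrocyte markers was 297 to 418 in fragments and 257, 212 and 750 in mural cell samples 1, 2 and 3. That of 8 oligodendrocyte progenitor markers was 83.0 to 108 and 82.3, 67.4 and 240. In mural cell sample 3, *Ptprz1* (108 FPKM) and *Bcan* (79.0) made up most of this progenitor sum. The other progenitor markers were at 0.924 to 15.5 FPKM there. Oligodendrocyte markers (6 genes, 48.4 to 80.1 against 24.6 to 36.1) and neuron markers (8 genes, 48.0 to 69.0 against 27.5 to 44.6) were low in both groups, and erythroid markers (6 genes, 132 to 234 against 149 to 243) overlapped. In such bulk samples, fewer cells of a type and less RNA per cell cannot be told apart.

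A larger share of the 42 listed matrix protease and inhibitor genes than of all genes was called enriched in mural cells. Genes were called enriched when the ratio of mean FPKM was above 2 with an adjusted p under 0.05 (limma on log2(FPKM + 1), Benjamini-Hochberg adjustment over all 14801 genes tested), and lower when the ratio was under 0.5. Of the 42 members, 40 reached an FPKM of 1 in 3 or more samples and were tested, and 15 of these were enriched, whereas 6.43% of all genes tested were enriched. A further 3 members were lower in mural cells, against 10.1% of all genes tested, and 22 were not called. Leaving out any 1 fragment sample left 1 lower member, *Adamts1*, and 607 to 702 lower genes over all in place of 1493. The filter then needed a value from mural cells as well, and 13916 to 13966 genes were tested in place of 14801. *Adam33*, below 1 FPKM in every mural cell sample, was not among them. The median ratio of all 42 members, untested ones included, was 1.94, and that of all genes tested was 0.943. The median log2 difference was 0.616 for the members tested and -0.123 for all genes tested. In 23 members every mural cell sample was above every fragment sample (16.5% of all genes tested), in 7 every mural cell sample was below (24.5%), and in 10 the groups overlapped. By family, 4 of 11 *Mmp* genes, 1 of 4 *Timp* genes, 2 of 9 *Adam* genes, 6 of 10 *Adamts* genes, 0 of 2 *Adamts*-like genes and 2 of 4 other members were enriched, and the lower genes were *Adam17*, *Adam33* and *Adamts1*. No set test was run on these counts. The members were chosen with earlier results of these data known, and 27 further genes of these and related families, given below, are outside the counts. The untested members were *Adamts20* and *Adamtsl3*, and of those tested *Adamts2* passed the filter through the mural cell samples only and *Adam33* through the fragments only.

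**Figure D1:**
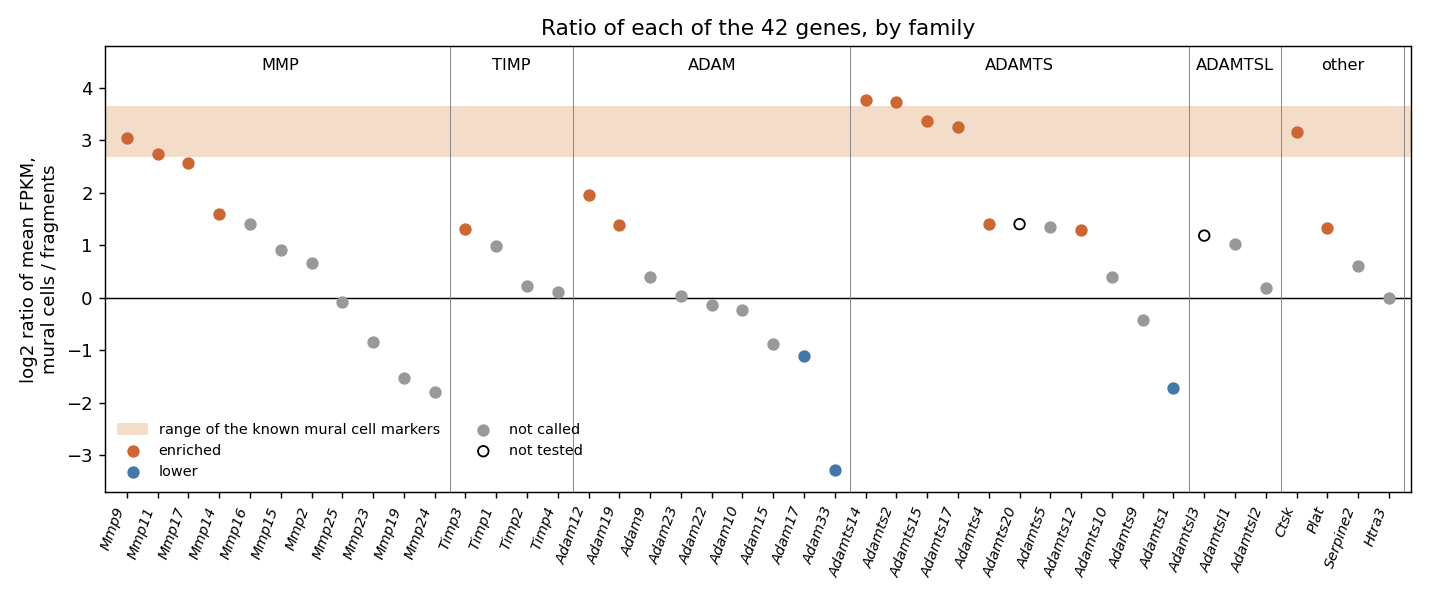
Ratio of mean FPKM in mural cells to mean FPKM in microvascular fragments for each of the 42 members, grouped by family and drawn as the log2 of the ratio. Colours give the calls, open points are genes that were not tested, and the band is the range of the 11 mural cell markers (6.47 to 12.5). *Adamts14* (ratio 13.6) and *Adamts2* (13.2) lie highest and *Adam33* (0.103) lowest, and the *Adam* family spreads to both sides of equality.

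Among the secreted matrix metalloproteases, the gelatinase *Mmp9* and *Mmp11* were enriched in mural cells. *Mmp9* (ENSMUSG00000017737, chr2:164766280-164781350 on the plus strand of NCBIM37) had an FPKM of 18.2, 18.4 and 20.8 in fragments 1, 2 and 3 and of 191, 140 and 144 in mural cell samples 1, 2 and 3. The lowest mural cell sample was thus far above the highest fragment sample. The mean of 158 ± 28.4 in mural cells was 8.27 times that of 19.2 ± 1.45 in fragments (SD with n = 3 in each group), and the log2 difference (on the log2(FPKM + 1) scale, mural cells minus fragments) was 2.97 with SE 0.15 (limma adjusted p = 8.1e-05). This ratio was within the range of the mural cell markers. *Mmp9* is also known as an abundant product of neutrophils. The summed FPKM of 10 neutrophil genes, a list chosen after the values were seen, was 86.9 to 194 in fragments and 4.97 to 15.0 in mural cells, where *S100a8*, *Camp*, *Mpo*, *Elane* and *Ly6g* were listed at 0 in every sample. The part of neutrophil RNA in the *Mmp9* values was not tested.

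*Mmp11* (ENSMUSG00000000901, chr10:75385967-75400678, minus strand), which is known from stromal cells around tumours and remodelling tissue, had an FPKM of 3.16, 2.83 and 2.76 in fragments and 22.3, 15.8 and 20.1 in mural cells. The groups were well apart, with a mean of 2.92 ± 0.212 (SD, n = 3) against 19.4 ± 3.32 (SD, n = 3). The ratio was 6.65 and the log2 difference 2.37 with SE 0.22 (limma adjusted p = 4.2e-04). The 2 other secreted members were not called. *Mmp2*, the other gelatinase and a target of MMP14 activation, had an FPKM of 8.10, 10.2 and 8.56 in fragments and 12.1, 17.5 and 13.0 in mural cells. All mural cell samples were above the fragments, but the ratio was 1.58 and the adjusted p 0.086 (limma). *Mmp19* was at most 2.18 FPKM, with a ratio of 0.349 (adjusted p = 0.15 from limma), and it rested on at most about 4 fragments in a mural cell library. Without mural cell sample 2, which had the highest of the mural cell values, it was called lower (ratio 0.0907, adjusted p = 0.032), whereas under quantile normalization the ratio was 0.859 (adjusted p = 0.76) and without mural cell sample 3 it was 0.523. Of the exon bases of *Mmp19*, 23.1% also lie in exons of *1110012D08Rik* on the opposite strand.

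The matrix metalloproteases tethered to the cell surface were called enriched for *Mmp14* and *Mmp17* and were otherwise not called. *Mmp14* (ENSMUSG00000000957, chr14:55050441-55060095, plus strand) encodes MT1-MMP, a collagenase of the cell surface that activates MMP2. Its FPKM was 43.3, 44.7 and 39.1 in fragments and 119, 136 and 130 in mural cells. The spread within each group was small, with means of 42.3 ± 2.90 and 128 ± 8.40 (SD with n = 3 in each group), a ratio of 3.03 and a log2 difference of 1.58 with SE 0.11 (limma adjusted p = 1.7e-04). *Mmp17* (ENSMUSG00000029436, chr5:130090089-130114086, plus strand), whose product is anchored by glycosylphosphatidylinositol, had an FPKM of 2.13, 2.52 and 2.09 in fragments and 8.40, 14.7 and 17.0 in mural cells. The mean of 13.4 ± 4.45 (SD, n = 3) was 5.95 times that of 2.25 ± 0.235 (SD, n = 3) in fragments (log2 difference 2.09, SE 0.30, limma adjusted p = 0.0027).

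*Mmp15*, the membrane-type enzyme closest in level to *Mmp14* in fragments, had an FPKM of 42.4, 39.5 and 36.6 there and of 81.9, 73.0 and 67.9 in mural cells. All mural cell samples were higher, and the adjusted p was 0.0024 (limma), but the ratio of 1.88 did not reach 2. *Mmp25*, the other glycosylphosphatidylinositol-anchored enzyme, overlapped between the groups, with 21.9, 15.0 and 17.1 in fragments and 21.0, 13.5 and 16.4 in mural cells (ratio 0.944, adjusted p = 0.82 from limma). *Mmp23* varied widely between replicates, with 18.8, 4.73 and 11.4 in fragments and 1.83, 7.21 and 10.6 in mural cells, and the groups overlapped (ratio 0.561, adjusted p = 0.41 from limma). *Mmp16* and *Mmp24*, membrane-type enzymes known from neural tissue, were low, at 2.15 to 11.0 and 0.309 to 3.72 FPKM. *Mmp16* had ratios of 2.66 with all samples and 3.24 without mural cell sample 3, where it passed the test (adjusted p = 0.087 and 0.036 from limma), and under quantile normalization it passed as well (adjusted p = 0.042). *Mmp24* had a ratio of 0.287 with all samples (adjusted p = 0.074) and passed the test as lower without mural cell sample 1 (ratio 0.113, adjusted p = 0.018), whereas under quantile normalization its ratio was 0.582 (adjusted p = 0.34).

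The levels of the family as a whole were dominated by a few genes. The summed FPKM of the 11 *Mmp* genes was 165, 144 and 147 in fragments and 465, 431 and 423 in mural cells. *Mmp9* made up 12.7% ± 1.56 (SD, n = 3) of this sum in fragments and 35.9% ± 4.54 (SD, n = 3) in mural cells, where it was the highest of the *Mmp* genes, with all 3 mural cell samples above the 3 of *Mmp14*. The share of *Mmp14* was 27.9% in fragments and 29.2% in mural cells, and that of *Mmp15* was 26.0% and 16.9%. The corresponding sum of the 4 *Timp* genes was 104, 107 and 120 in fragments and 104, 184 and 209 in mural cells, so that the groups of *Timp* sums overlapped while those of the *Mmp* sums did not.

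**Figure D2:**
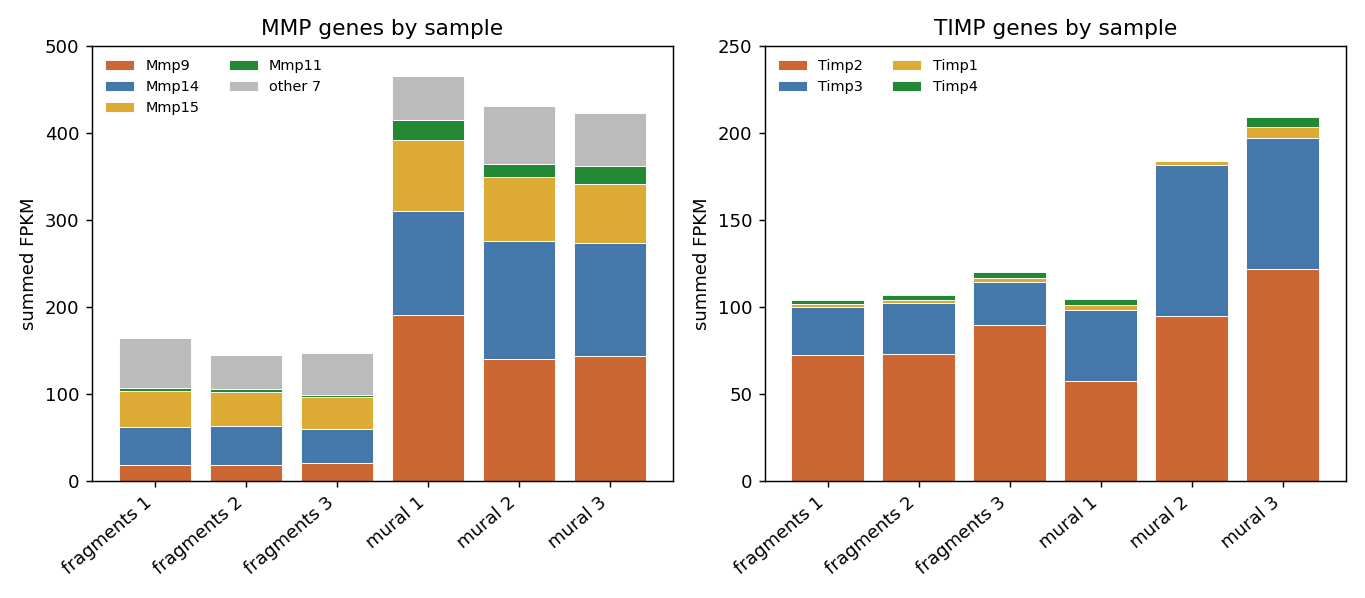
Summed FPKM of the 11 *Mmp* genes and of the 4 *Timp* genes in each of the 3 fragment and 3 mural cell samples, as stacked bars from 0 with 1 colour for each of the main genes. The *Mmp* sum was 152 ± 11.1 in fragments and 440 ± 22.7 in mural cells (SD over 3 samples), and the *Timp* sum was 110 ± 8.40 and 166 ± 54.8, with mural cell sample 1 at the level of the fragments.

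Of the inhibitors, *Timp3* was enriched. TIMP3 differs from the other TIMPs in that it binds to the extracellular matrix and also inhibits ADAM17 and several ADAMTS enzymes. *Timp3* (ENSMUSG00000020044, chr10:85763117-85812251, plus strand) had an FPKM of 27.7, 29.5 and 24.4 in fragments and 40.6, 86.9 and 75.3 in mural cells. Mural cell sample 1 was well below the other mural cell samples but still above every fragment sample. The means were 27.2 ± 2.61 and 67.6 ± 24.1 (SD with n = 3 in each group), with a ratio of 2.49 and a log2 difference of 1.22 with SE 0.27 (limma adjusted p = 0.018). The call was lost when fragment sample 1, 2 or 3 was left out (ratios 2.51, 2.60 and 2.36, adjusted p = 0.060, 0.051 and 0.074). Of the exon bases of *Timp3*, 21.3% also lie in exons of *Syn3* on the opposite strand, which had an FPKM of 14.5, 15.9 and 15.9 in fragments and 21.8, 34.7 and 30.6 in mural cells. The use of strand in the counting was not stated, and the part of either gene in the values of the other was not tested.

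*Timp2*, which inhibits MMP2 and also takes part in its activation by MMP14, had the highest level of the *Timp* genes in both groups. Its FPKM was 72.1, 72.8 and 89.9 in fragments and 57.7, 94.8 and 122 in mural cells. The groups overlapped, with a ratio of 1.17 (adjusted p = 0.70 from limma). *Timp1* and *Timp4* were low, at 1.48 to 6.27 FPKM, apart from *Timp4* in mural cell sample 2, which was listed at 0. Both overlapped between the groups (ratios 1.99 and 1.09, adjusted p = 0.27 and 0.78 from limma). *Timp4*, which is known in the brain from astrocytes, and *Timp1* were each highest in mural cell sample 3, which had the highest sum of astrocyte markers (750). In mural cell samples 1, 2 and 3, however, *Timp4* rested on about 7, 0 and 6 fragments and *Timp1* on about 3, 1 and 3. The part of astrocyte RNA in these values was not tested.

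The *Adam* family moved in both directions. The meltrins *Adam12* and *Adam19*, proteases known from muscle and mesenchymal tissue and from heart development, were enriched. *Adam12* (ENSMUSG00000054555, chr7:141074882-141423829, minus strand) had an FPKM of 6.46, 2.98 and 3.24 in fragments and 20.2, 15.5 and 13.4 in mural cells. Even the lowest mural cell value exceeded all fragment values, and the means were 4.23 ± 1.94 and 16.4 ± 3.47 (SD with n = 3 in each group), a ratio of 3.87 (log2 difference 1.77, SE 0.31, limma adjusted p = 0.0061). *Adam19* (ENSMUSG00000011256, chr11:45868004-45960845, plus strand) had 12.2, 8.70 and 12.8 in fragments and 31.4, 25.0 and 31.4 in mural cells. Here too the groups did not overlap, with means of 11.2 ± 2.19 and 29.3 ± 3.71 (SD with n = 3 in each group), a ratio of 2.61 and a log2 difference of 1.32 with SE 0.20 (limma adjusted p = 0.0032).

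*Adam17* and *Adam33* were lower in mural cells. *Adam17* (ENSMUSG00000052593, chr12:21329370-21379493, minus strand) encodes the enzyme that releases tumour necrosis factor and several ligands of the epidermal growth factor receptor. Its FPKM was 52.1, 51.5 and 73.8 in fragments and 28.3, 36.0 and 18.5 in mural cells. No mural cell sample reached the fragments, with means of 59.2 ± 12.7 and 27.6 ± 8.75 (SD with n = 3 in each group), a ratio of 0.466 and a log2 difference of -1.10 with SE 0.26 (limma adjusted p = 0.021). The call was lost without fragment sample 1, 2 or 3 (adjusted p = 0.055, 0.051 and 0.087), and without mural cell sample 3 the ratio was 0.543. *Adam33* (ENSMUSG00000027318, chr2:130876327-130889550, minus strand) had an FPKM of 2.65, 4.15 and 3.16 in fragments and of 0.303, 0.721 and 0 in mural cells, where the values rested on about 2, 2 and 0 fragments. Its ratio was 0.103 (log2 difference -1.71, SE 0.32, limma adjusted p = 0.0089), and under quantile normalization it was not called (ratio 0.287, adjusted p = 0.054).

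The other 5 *Adam* members were not called. *Adam10*, the main sheddase of Notch receptors and of the amyloid precursor protein, had the highest level of the family, with an FPKM of 117, 118 and 117 in fragments and 114, 97.6 and 87.4 in mural cells. All mural cell samples were slightly below the fragments, but the difference did not pass the test (ratio 0.848, adjusted p = 0.21 from limma). *Adam15*, known from endothelial and other cell junctions, had 95.4, 107 and 99.8 in fragments and 69.0, 49.9 and 45.4 in mural cells. It differed between the groups (adjusted p = 0.0091 from limma) but its ratio of 0.544 did not reach 0.5, except without mural cell sample 1 (0.474, adjusted p = 0.0026). *Adam9* had 33.0, 32.3 and 35.4 in fragments and 38.4, 51.5 and 43.8 in mural cells, a ratio of 1.33 (adjusted p = 0.095 from limma). The catalytically inactive *Adam22* and *Adam23* were at 0.893 to 6.92 FPKM in all samples, with overlapping groups. In the same mural cell samples the microglia markers were at a median of 8.62% of the fragments, the perivascular macrophage markers at 7.70% and the endothelial markers at 67.8%. The part of these cells in the values of *Adam17*, *Adam33* and *Adam15* was not tested.

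The *Adamts* family held the members with the largest ratios. The procollagen N-proteinases *Adamts2* and *Adamts14*, which remove the amino-terminal propeptide of fibrillar procollagens, were both enriched. *Adamts14* (ENSMUSG00000059901, chr10:60659860-60736186, minus strand) had an FPKM of 1.58, 1.19 and 0.948 in fragments and 12.2, 21.8 and 16.5 in mural cells. The means of 1.24 ± 0.320 and 16.9 ± 4.83 (SD with n = 3 in each group) gave a ratio of 13.6, above the range of the mural cell markers, and a log2 difference of 2.97 with SE 0.29 (limma adjusted p = 5.0e-04). *Adamts2* (ENSMUSG00000036545, chr11:50415586-50621075, plus strand) had 0.529, 0.570 and 0.428 in fragments, from about 14 to 17 fragments in a library, and 4.30, 7.61 and 8.26 in mural cells. The means were 0.509 ± 0.073 and 6.72 ± 2.12 (SD with n = 3 in each group), with a ratio of 13.2 and a log2 difference of 2.32 with SE 0.31 (limma adjusted p = 0.0019). Both ratios moved by more than 1.5 times under quantile normalization, to 30.3 for *Adamts14* and 31.3 for *Adamts2*.

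Other genes of collagen processing in the lists were called in part. *Bmp1*, the procollagen C-proteinase, had a ratio of 3.33 (adjusted p = 2.6e-04 from limma), and *Pcolce*, which enhances it, of 8.92 (adjusted p = 8.5e-05). Their substrates *Col1a1*, *Col1a2* and *Col3a1* had ratios of 12.9, 12.1 and 8.49 (adjusted p = 8.1e-05, 5.1e-05 and 1.5e-04). *Adamts3*, the remaining procollagen N-proteinase and named here after its values were seen, was near the filter, with a mean of 0.602 FPKM in fragments and 1.55 in mural cells (ratio 2.58, adjusted p = 0.12 from limma). *Tll1*, a relative of *Bmp1*, was not called (ratio 0.545, adjusted p = 0.28), and *Pcolce2*, a relative of *Pcolce*, was at most 1.64 FPKM and was not tested. Both are also named after their values were seen. These collagens are also known fibroblast markers. Of the 9 fibroblast markers tested, 6 were enriched (*Col1a1*, *Col1a2*, *Col3a1*, *Col6a3*, *Dcn* and *Lum*) and *Pdgfra* (ratio 1.59), *Fbln1* (1.62) and *Slc6a13* were not, and *Dpt*, not tested, was listed at 0 in 5 of 6 samples. The part of fibroblast RNA in the collagen-processing genes was not tested.

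Among the *Adamts* genes whose products cleave versican, aggrecan and other proteoglycans, the direction differed between genes. *Adamts1* (ENSMUSG00000022893, chr16:85794072-85803358, minus strand), an inhibitor of vessel growth as well as a protease, was the most abundant member of the family in fragments and was lower in mural cells. Its FPKM was 96.2, 61.2 and 64.5 in fragments and 27.3, 24.7 and 16.0 in mural cells, so the groups were far apart. The means of 74.0 ± 19.3 and 22.7 ± 5.94 (SD with n = 3 in each group) gave a ratio of 0.307 and a log2 difference of -1.67 with SE 0.25 (limma adjusted p = 0.0032). *Adamts15* (ENSMUSG00000033453, chr9:30706740-30730037, minus strand) went the other way, with 1.22, 1.53 and 0.938 in fragments and 7.28, 16.7 and 14.2 in mural cells. Its lowest mural cell value was several times the highest fragment value, and the means were 1.23 ± 0.295 and 12.7 ± 4.86 (SD with n = 3 in each group), a ratio of 10.3 (log2 difference 2.56, SE 0.34, limma adjusted p = 0.0020), or of 23.0 under quantile normalization.

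*Adamts4* (ENSMUSG00000006403, chr1:173180552-173190768, plus strand), an aggrecanase, had an FPKM of 5.80, 3.48 and 2.97 in fragments and 10.6, 14.4 and 7.58 in mural cells. The groups did not overlap, with means of 4.08 ± 1.51 and 10.9 ± 3.44 (SD with n = 3 in each group), a ratio of 2.67 and a log2 difference of 1.22 with SE 0.32 (limma adjusted p = 0.032). This call was lost without fragment sample 2 or 3 (adjusted p = 0.110 and 0.122), without mural cell sample 1 or 2 (0.067 and 0.072), and with no filter on low values (0.056). *Adamts9*, which also cleaves versican, was more even, with 41.7, 30.8 and 33.5 in fragments and 24.6, 30.2 and 24.5 in mural cells (ratio 0.748, adjusted p = 0.13 from limma). The aggrecanase *Adamts5* was low (1.14 to 5.15 FPKM) and not called (ratio 2.56, adjusted p = 0.071 from limma), but was called enriched under quantile normalization (ratio 5.20, adjusted p = 0.011) and without the intensity trend (adjusted p = 0.039). *Adamts20* was not tested, at 0.612 to 3.00 FPKM. Of their substrates, *Vcan* (versican, named after its values were seen) had a ratio of 1.90 and was not called (adjusted p = 0.11 from limma). *Dcn* (decorin) was enriched with a ratio of 7.33 (adjusted p = 8.9e-04). The proteoglycan genes *Bcan*, *Ncan* and *Acan* (aggrecan) were also named after their values were seen. *Bcan* and *Ncan* had ratios of 1.28 and 1.38 and were not called (adjusted p = 0.96 and 0.79 from limma). *Acan* was at most 1.18 FPKM and was not tested.

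*Adamts12* and *Adamts17*, which stand outside these subgroups, were enriched, and *Adamts10* was not called. *Adamts17* (ENSMUSG00000058145, chr7:73984621-74297511, plus strand), known with *Adamts10* for inherited short stature syndromes and for a link to fibrillin microfibrils, had an FPKM of 3.29, 4.89 and 3.33 in fragments and 37.7, 47.2 and 24.7 in mural cells. The lowest mural cell sample was far above all fragments, and the means of 3.84 ± 0.912 and 36.5 ± 11.3 (SD with n = 3 in each group) gave a ratio of 9.52 and a log2 difference of 2.93 with SE 0.28 (limma adjusted p = 4.7e-04). *Adamts10* had 31.5, 32.0 and 28.0 in fragments and 38.2, 46.6 and 35.5 in mural cells, with all mural cell samples above the fragments but a ratio of only 1.31 (adjusted p = 0.11 from limma). *Adamts12* (ENSMUSG00000047497, chr15:10994545-11276622, plus strand), a protease of cartilage oligomeric matrix protein, had 16.4, 23.0 and 17.9 in fragments and 51.0, 65.5 and 24.6 in mural cells. Mural cell sample 3 was close to the fragments, and the means were 19.1 ± 3.45 and 47.0 ± 20.7 (SD with n = 3 in each group), a ratio of 2.46 (log2 difference 1.16, SE 0.34, limma adjusted p = 0.049). Among the called members it had the highest adjusted p, and the call was lost in 8 of 14 alternatives, with adjusted p values of 0.158, 0.085 and 0.147 without fragment sample 1, 2 or 3, of 0.116 without mural cell sample 1 and of 0.103 without mural cell sample 2, where the ratio was 1.98.

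The upstream sequences of *Adamts14* and *Adamts17*, the *Adamts* members with the largest log2 differences, are shown as examples of the start regions of genes that were high in the same samples. RefSeq promoters of GRCm38.p6 were at hand for 28 of the 42 members, and the 250 bases before the start were searched on both strands for the letters TGANTCA (the AP-1 site), GGGCGG (the GC box), TATAAA (the TATA box) and TGGGAA (the core of the RBPJ site of Notch signalling). Matches are in capitals, and matches of the GC box can overlap or adjoin.
Adamts14: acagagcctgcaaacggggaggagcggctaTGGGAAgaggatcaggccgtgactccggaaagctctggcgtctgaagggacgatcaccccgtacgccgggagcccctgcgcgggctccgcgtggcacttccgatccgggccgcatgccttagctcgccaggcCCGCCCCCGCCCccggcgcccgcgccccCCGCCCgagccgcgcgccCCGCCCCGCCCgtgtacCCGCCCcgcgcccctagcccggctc
Adamts17: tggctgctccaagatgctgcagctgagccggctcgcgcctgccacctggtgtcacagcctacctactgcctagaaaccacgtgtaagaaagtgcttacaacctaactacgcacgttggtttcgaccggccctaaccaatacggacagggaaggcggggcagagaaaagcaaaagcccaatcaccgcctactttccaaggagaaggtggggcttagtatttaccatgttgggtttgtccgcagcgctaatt
The *Adamts14* sequence (chr10:61273420-61273669, minus strand) is 76.4% G or C and holds 6 matches of the GC box and 1 of the RBPJ core, whereas the *Adamts17* sequence (chr7:66839485-66839734, plus strand) is 54.4% G or C and holds none of these letters. Over all 32851 promoters of the table, 32.7% held the GC box, 21.6% the RBPJ core, 12.4% the TATA box and 6.75% the AP-1 site. These shares are by promoter, whereas members were counted by gene, with a match in any promoter entry of the gene. Among the 9 enriched members with an entry, 5 held the GC box (*Adamts2*, *Adamts14*, *Mmp11*, *Mmp14* and *Timp3*), 1 the RBPJ core, 0 the TATA box and 1 the AP-1 site (*Adam19*), and among the 19 other members 14, 4, 2 and 0 did. None of the 4 motifs was found in all 9 enriched members.

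The *Adamts*-like genes, whose products resemble ADAMTS proteins without the protease domain and bind fibrillin and other matrix proteins, were not called. *Adamtsl2* was by far the highest, with an FPKM of 49.6, 43.1 and 32.2 in fragments and 58.6, 31.3 and 52.7 in mural cells, and the groups overlapped (ratio 1.14, adjusted p = 0.71 from limma). *Adamtsl1* was at 2.45 to 9.90 FPKM (ratio 2.03, adjusted p = 0.15 from limma), and *Adamtsl3*, at 0 to 3.37 FPKM, was not tested.

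Of the other members, the proteases *Ctsk* and *Plat* were enriched. *Ctsk* (ENSMUSG00000028111, chr3:95303208-95313284, plus strand) encodes cathepsin K, a collagen-degrading cysteine protease best known from osteoclasts. Its FPKM was 4.08, 3.68 and 3.01 in fragments and 26.9, 34.6 and 34.7 in mural cells. The replicates lay close together, with means of 3.59 ± 0.540 and 32.0 ± 4.46 (SD with n = 3 in each group), a ratio of 8.92 and a log2 difference of 2.84 with SE 0.20 (limma adjusted p = 1.6e-04). *Plat* (ENSMUSG00000031538, chr8:23868216-23893319, plus strand) encodes tissue plasminogen activator. It had 75.8, 60.7 and 54.1 in fragments and 179, 173 and 130 in mural cells, with no overlap, means of 63.6 ± 11.1 and 161 ± 26.9 (SD with n = 3 in each group) and a ratio of 2.53 (log2 difference 1.32, SE 0.18, limma adjusted p = 0.0020).

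*Serpine2*, which encodes the plasminogen activator and thrombin inhibitor protease nexin, had the highest mean FPKM of all members in both groups. Its FPKM was 114, 131 and 144 in fragments and 174, 220 and 195 in mural cells. All mural cell samples were higher, with means of 130 ± 15.3 and 197 ± 23.1 (SD with n = 3 in each group) and an adjusted p of 0.020 (limma), but the ratio was 1.52. The serine protease *Htra3* overlapped between the groups, with 84.9, 75.9 and 77.2 in fragments and 97.3, 57.1 and 82.2 in mural cells (ratio 0.994, adjusted p = 0.91 from limma).

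**Figure D3:**
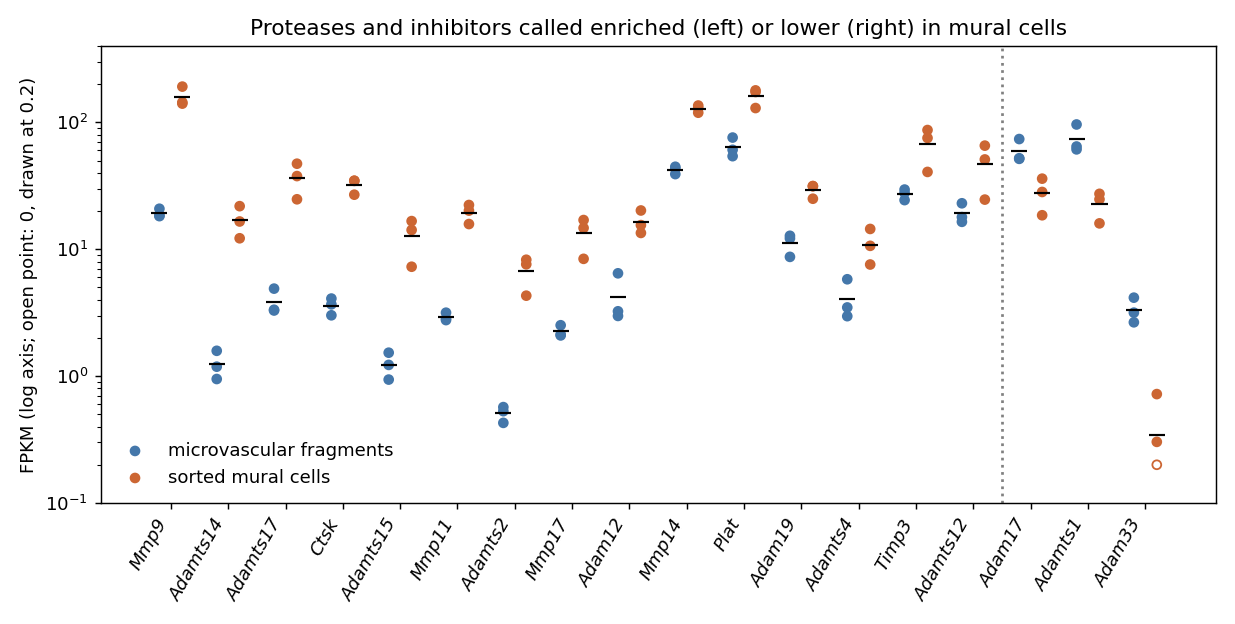
FPKM of the 18 called members in each sample on a log axis, with 3 points for fragments and 3 for mural cells per gene, a bar at each mean and an open point for a value of 0. In all 15 enriched genes, from *Mmp9* with 140 to 191 FPKM in mural cells to *Adamts2* with 4.30 to 8.26, the mural cell points lie above the fragments, and in *Adamts1*, *Adam17* and *Adam33* they lie below.

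The remaining genes of the same families moved in both directions as well. Of 27 further *Mmp*, *Adam*, *Adamts*, *Adamts*-like and related genes, 13 were tested, and 9 were listed at 0 in every mural cell sample. None of these 9 was tested, and their means in fragments were also low, at 0 to 1.24 FPKM. Of the 13 tested, 6 were enriched, against 6.43% of all genes tested, and 3 were lower, against 10.1%. The enriched genes with the largest ratios were *Adamtsl5* (13.0), *Adamts16* (7.85), *Adamts8* (5.87), *Adamts7* (5.56) and *Bmp1* (3.33), with adjusted p of 0.013, 8.5e-05, 2.4e-04, 0.0012 and 2.6e-04 (limma). *Adamts16* and *Adamts8* had mean FPKM of 57.5 ± 7.11 and 43.3 ± 4.92 (SD with n = 3 in each group) in mural cells and thus exceeded the 36.5 of *Adamts17*. *Adamts7*, the closest relative of *Adamts12*, had 17.6 ± 3.54 against 3.16 ± 0.803 in fragments (SD with n = 3 in each group). The lower genes were *Adam8*, a protease of leukocytes (ratio 0.0699, adjusted p = 0.0047), *Adamtsl4* (0.0887, adjusted p = 0.0024) and *Papln* (0.392, adjusted p = 0.037). Of these called genes, *Adamtsl5* passed the filter through the mural cell samples only, with 0.165 to 0.747 FPKM in fragments. *Adam8* passed it through the fragments only, with 0 to 0.632 FPKM in mural cells.

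Of 37 activators and inhibitors of these proteases, 32 were tested. Among them, 8 were enriched, against 6.43% of all genes tested, and 6 were lower, against 10.1%. Besides *Pcolce*, the enriched genes with the largest ratios were the serine protease inhibitors *Serping1* (5.79, adjusted p = 6.0e-04 from limma) and *Serpini1* (3.67, adjusted p = 0.037) and the tetraspanins *Tspan17* (3.99, adjusted p = 0.0011) and *Tspan15* (2.95, adjusted p = 0.0015), which guide ADAM10 to the cell surface. *Tspan33*, a tetraspanin of the same subgroup, was lower (ratio 0.231, adjusted p = 0.0037). The other lower genes with the largest changes were the lysosomal cathepsins *Ctss* (0.0976, adjusted p = 5.4e-05), *Ctsb* (0.223, adjusted p = 5.7e-04) and *Ctsd* (0.223, adjusted p = 4.3e-04) and *Rhbdf2*, a partner of ADAM17 (0.370, adjusted p = 0.021). These cathepsins are abundant in microglia, whose 8 markers were all lower, and the part of microglia RNA in their values was not tested. *Rhbdf1*, the other partner of ADAM17 of this kind and named after its values were seen, was enriched (ratio 2.33, adjusted p = 0.0022). *Reck*, a membrane inhibitor of MMP9 and MMP14, and *Furin*, which activates membrane-type MMPs and ADAMs, were named after their values were seen. They had ratios of 1.69 (adjusted p = 0.021) and 1.02 (adjusted p = 0.94) and were not called. *Plg*, the substrate of tissue plasminogen activator and chosen in the same way, was listed at 0 in every sample.

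Of 31 substrates, 28 were tested. Among these, 11 were enriched, against 6.43% of all genes tested, and 1 was lower, against 10.1%. After *Col1a1* and *Col1a2*, the largest ratio was that of *Notch3*, the Notch receptor of mural cells (9.21, adjusted p = 8.1e-05 from limma), followed by *Col3a1* and *Dcn*, and the lower gene was *Fbln2* (fibulin, ratio 0.214, adjusted p = 1.9e-04). Of the 5 basement membrane genes in the list, which are named here after their values were seen, *Col4a1* (ratio 3.92), *Col4a2* (2.99) and *Nid1* (2.89) were enriched, and *Nid2* (1.32) and *Hspg2* (perlecan, 1.25) were not called.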

How the data were processed

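RNA-seq was measured in 6 samples, 3 of sorted mural cells and 3 of microvascular fragments, grouped by their titles. The libraries were made from rRNA-depleted total RNA with a stranded low-input kit. Per the study's methods and the submitters' processing notes, the authors aligned reads to NCBIM37 with TopHat2 2.0.4, removed duplicates (Picard 1.92) and calculated FPKM (Cufflinks 2.2.1). The authors deposited 1 FPKM value per Ensembl gene and library, so no test for counts was used. The use of strand in the FPKM step was not stated.

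Repeated lines of 9 identifiers, equal in value, were dropped. Symbols, coordinates and exons came from the GENCODE annotation of NCBIM37. Genes that reached an FPKM of 1 in 3 or more samples were fitted as log2(FPKM + 1) with limma 3.58.1 in R 4.3.3 (intensity trend, Benjamini-Hochberg adjustment). Log2 differences, given with their standard errors (SE), are on this scale, which understates changes of genes with low values, and ratios are of mean FPKM. Other steps used Python 3.11.15, pandas 2.3.3, and NumPy version 2.4.6.

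Depth was recovered from low values of genes with 1 transcript, of which 97.3 to 98.4% were whole multiples of 1 fragment within 0.05. Fragments per member are approximate, as the longest transcript was used, and 10 members have a single transcript. Summed in this way over protein-coding genes, they came to 5.44 to 5.97 M in the microvascular libraries and 1.04 to 2.36 M in the mural cell libraries. These sums exceed the mapped fragments given above, so the numbers per member run high against that total. Exons of 9 members overlap those of another gene.

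Members called enriched or lower and those with a mean FPKM of at least 10 in either group are given for every sample, the rest by range. Of each list of further family genes, activators and inhibitors, and substrates, the 5 called genes with the largest change in each direction are named, and others only where the text says that they were named after their values were seen. Marker lists are given by sums, with the fibroblast markers also by name. *Ptprz1* and *Bcan* of the progenitor list were named after their values were seen. The members and lists were chosen with earlier results of these data known. The labels give no animal for a sample, so p-values measure the spread between these samples. Alternatives were a pseudocount of 0.1, no filter, a filter at FPKM 5, median-ratio scaling, quantile normalization, no intensity trend, the replicate number as a block, leaving out each sample and, chosen after seeing the data, genes above 0 in both groups only. Imaging and protein data were not used here.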

Additional observations from a re-analysis of the deposited data

How the results depend on the processing

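Of the 15 enriched members, *Adamts12*, *Adamts4* and *Timp3* lost the call in at least 1 alternative, and the other 12 kept it wherever they were tested. *Adamts2* could not be tested with a filter at FPKM 5 or without any 1 of the mural cell samples. Of the 3 lower members, *Adamts1* kept the call in all alternatives run, while *Adam17* and *Adam33* did not, and *Adam33* could not be tested with the filter at FPKM 5 or without a fragment sample. Leaving out 1 sample at a time, the number of enriched members was 12 to 15 and that of lower members 1 to 5, and over all genes 691 to 949 were enriched (952 with all samples) and 607 to 1733 lower (1493 with all samples). The lower count for all genes was 607, 654 or 702 without a fragment sample, where 13916 to 13966 genes passed the filter in place of 14801. With the filter at FPKM 5, 948 genes and 2 members were lower. Quantile normalization called 1212 genes enriched and 1080 lower, so that 52.9% of the calls were enriched against 38.9% in the fit as reported, with 17 and 2 members. It moved the median log2 difference from -0.12 to 0.01. The cause of these shifts was not tested. Replicate numbers were checked for pairing, and the deviations of same-numbered samples correlated with r of 0.08, 0.02 and 0.05. Those of differently numbered samples were lower, with r of -0.061 to 0.010. These small values do not settle whether the numbers pair the samples. As the labels give no animal for a number, the fit as reported did not pair them. With the replicate number as a block, 900 genes were enriched and 1344 lower, and the same 15 enriched and 3 lower members were called. The direction changed only for uncalled members. Under quantile normalization the log2 difference of *Timp4* was 0.14 and that of *Adam22* 0.11. With 1 sample left out at a time it ranged from -0.93 to 0.50 for *Timp4*, from -0.36 to 0.13 for *Adam22*, from -0.25 to 0.24 for *Adam23*, from -0.24 to 0.060 for *Mmp25*, from -0.21 to 0.17 for *Htra3*, from -0.011 to 0.43 for *Adamtsl2* and from -0.072 to 0.46 for *Timp2*. The mural cell libraries held about 0.744 to 1.77 M mapped fragments. Low values there thus rested on few fragments, such as about 4 or fewer for *Mmp19* and 2 or fewer for *Adam33*.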
